A study of Drosophila melanogaster with 35 samples.

Results

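The genes described here are 112 uncharacterised Drosophila melanogaster genes whose cDNA probes came from an ovary library. A probe row was taken if its identifier began with GM, the prefix of the ovary clones, and if it named exactly 1 gene whose symbol was only CG and digits, the form a gene keeps until it is given a name. Of 442 GM rows, 117 met this rule, and they named 116 genes. The 4 genes that also had a testis (AT) or larval (LP) row were left out, as CG31635, CG6040, CG6195 and CG6357. The 112 that remained are 112 of 7258 genes with a symbol on the arrays and of 2806 genes with a CG number. The other 2694 CG-numbered genes are the comparison throughout. They keep the genes with an AT or LP row, which the rule takes out of the members. The comparison is thus not matched in clone source. The 112 genes had 126 rows, which were averaged per gene, and 99 genes had GM rows alone. 1 member is also named by an AT or LP row that lists several genes, and it was kept. The rule uses no measured value, but it was chosen with earlier results of these data known.

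The series used 35 two-colour cDNA arrays in 13 groups to follow the nuclear lamina in Kc167 cells, an established line of embryonic Drosophila cells. In DamID, a protein of interest is fused to the E. coli DNA adenine methyltransferase Dam, the methylated DNA is isolated, and its amount is set against that from cells with Dam alone. Untreated cells expressing Dam-Lam were set against cells expressing Dam on 4 arrays, and Dam-Lam delta CaaX, a Lam without its C-terminal CaaX motif, on 4 others. In a second experiment on 10 arrays, cells expressing Dam, Dam-Lam or Dam-Lam delta CaaX were grown without or for 24 h with 100 nM trichostatin A (TSA), which blocks histone deacetylases. Messenger RNA was set against genomic DNA on 2 arrays, and mRNA of cells grown with ecdysone against untreated cells on 5 arrays, where the labels give no dose. A separate ecdysone DamID experiment on 10 arrays used cells expressing Dam or Dam-Lam, grown without or for 24 h with 1 uM ecdysone. All groups are the same cell line. The fusion proteins were expressed from transfected plasmids. Nothing in the labels ties an array to its own culture, so the tests speak of the spread between arrays, which may be technical.

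Lamins are intermediate filament proteins that form a meshwork under the inner nuclear membrane. The CaaX motif at the C terminus is a signal for farnesylation, which helps to hold lamin at the membrane. Chromatin in contact with the lamina is, in general, gene-poor and transcriptionally quiet. A cDNA library samples the transcripts of the tissue it was made from, so an ovary clone records a gene that was transcribed in ovary, which holds germline and follicle cells. Of the 112 genes, 105 were found in the RefSeq annotation (Release 6 plus ISO1 MT), where every one of those still carried its CG symbol. The annotation lists a protein-like synonym for a few of them, given below where they occur.

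Values are log2 ratios with the median of each array set to 0. The deposited ratios were read as channel 1 over channel 2 of the labels, a direction that the sources used here do not state. Arrays of the same comparison correlated positively in the Lam, Lam delta CaaX and TSA groups, with r between 0.42 and 0.91 over all units (genes, or rows with no single gene name). The 6 Dam-Lam over Dam arrays of a separate ecdysone experiment included pairs of the same dye with r of -0.65 and -0.56 (arrays 3428 and 3436, and arrays 3434 and 3441). Their direction is unsettled, and no gene was called from them. Arrays carried 7542 to 8485 rows with a value, and 6 members (CG15014, CG15747, CG16890, CG17996, CG32266 and CG9266) had none on the TSA and ecdysone arrays.

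The probes of the ovary CG genes read a higher mRNA level in Kc167 cells than those of other CG-numbered genes. Their median mRNA level over genomic DNA was 1.00 on array 3458 and 1.10 on array 3459, where the 2581 other CG-numbered genes measured had medians of -0.56 and -0.76. At least 1 above the array median on both arrays were 53 of 112 (47.3%), against 24.9% of all units measured. Above the median on both arrays were 84 (75%; 46.8% of all units), and 20 were below it on both (17.9%; 47.3% of all units). A level of at least 1 below the median on both arrays was found for 9 (8.04%; 24.2% of all units). The other CG-numbered genes keep 438 genes with a testis clone, whose median level was -1.37. They also keep genes with LP rows, and LP rows of CG-numbered genes had a median of -1.37. The part of this selection in the difference was not tested. No test was made on these 2 arrays.

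CG8860 had the highest level, 3.87 and 3.91 on the 2 arrays. CG17896 followed with 3.60 and 3.43, and CG11357, for which the annotation lists the synonym dbeta3GnT, with 3.45 and 3.51. These 3 genes read above 3 on both arrays. The next 7 genes, CG5969, CG11444, CG9281, CG9917, CG8545, CG32599 and CG7668, had means from 2.44 to 3.00. CG8545 is listed with the synonym NOP2, in yeast and human a nucleolar methyltransferase of ribosomal RNA.

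A smaller number were low. CG10359 had the lowest level, -2.37 and -3.13, measured on its RE row and not on the ovary clone. The other 9 of the 10 lowest had means from -1.96 to -1.38 and were CG9902, CG15332, CG17190, CG32054, CG12010, CG30154, CG32266, CG7102 and CG13067. Among these, CG12010 read -2.48 on array 3458 and -0.72 on array 3459, so its place in the order is not settled. The level is a ratio of hybridisation per probe and is given here as a rank among probes, not as a count of transcripts.

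The clone source of the probe moved with the mRNA level. In 43 genes with a GM row and a row of another library, the GM row read the higher mRNA level in 38, by a median of 1.36. The 6 members with both kinds of row on the mRNA arrays all read higher on the GM row, by a median of 2.09. CG5532 differed most, with 3.28 on its GM row and -1.87 on its RH row. CG17270 read 1.33 and -1.58, CG31224 read 2.04 and -0.40, CG6325 read 1.30 and -0.45, CG33298 read 1.26 and -0.14, and CG9917 read 2.74 and 2.46. For the 10 members with a row of another library measured, the median level was 0.63 with all rows averaged and -0.27 from the rows of other libraries alone. In 4 of the 10 (CG10359, CG15611, CG3847 and CG5757) no GM row was measured, so that both values are the same. Of the 6 with both rows, 5 were above 0 on the GM row and below 0 on the other, and CG9917 was above 0 on both. Rows of the other libraries differed from their gene's remaining rows by medians between -0.43 and 0.45. The 211 named genes with a GM row measured had a median level of 1.12, close to that of the members. The part of the probe's origin in the members' high mRNA level was not tested.

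**Figure D1:**
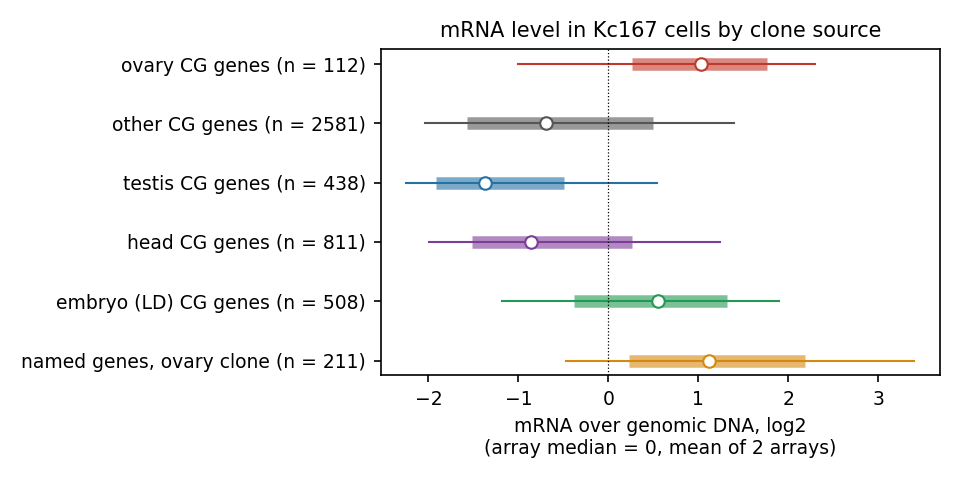
mRNA over genomic DNA (log2, array median at 0, mean of 2 arrays) for gene classes by clone source. Open circles are medians, thick bars the 25th to 75th percentile and thin lines the 10th to 90th percentile over genes; the ovary CG genes centre on 1.03 and the testis CG genes on -1.37.

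The labelled cell type was checked with marker lists. Of 22 ovary germline genes 19 were measured, and 8 were above and 10 below the median on both arrays, with a median of -0.47 and a range from -2.19 (vas, a germline RNA helicase) to 4.13 (tud, a germ plasm component). Of 15 follicle cell and eggshell genes only 3 were measured, Yp1, Yp2 and Yp3, which encode yolk proteins. These were all below the median at -1.88, -1.53 and -0.46, and nothing is read from them about follicle cells. Of 17 hemocyte genes 13 were measured, and 6 were above and 6 below the median on both arrays, with a median of -0.023 and a range from -2.37 (PPO1) to 4.49 (Hml). NimC1 (-2.25), PPO3 (-1.98), PPO2 (-1.10) and eater (-0.85) were also low, and SPARC (3.63) and Ppn (1.98) high. The ovary germline list thus lay on both sides of the array median. The part of any cell type in the members' levels was not tested.

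In untreated cells the ovary CG genes had a lower median Lam ratio than other CG-numbered genes on all 4 arrays of the first experiment. The members' median Dam-Lam over Dam ratio was -0.15, -0.11, -0.15 and -0.16 on arrays 2907, 2921, 2945 and 2955. The other CG-numbered genes had medians of 0.09, 0.12, 0.05 and 0.11. In the limma fit, 7 of 112 had a higher ratio than 0 (6.25%; 20.3% of all 8062 units) and 18 a lower one (16.1%; 14.9% of all units), at an adjusted p under 0.05. The members' share of lower calls was thus near the background, and their share of higher calls below it. Of 2580 other CG-numbered genes 25.5% were higher and 12.3% lower. Of the 105 members with a value on all 4 arrays, 19 were above 0 on all (18.1%; 29.3% of all units) and 32 below 0 on all (30.5%; 28.1% of all units). The untreated arrays 3434, 3441 and 3443 of the ecdysone DamID experiment, of unsettled direction, are not among these. There the members' median minus that of the other CG-numbered genes was -0.25, 0.38 and 0.25, with no sign turned.

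The counts of calls depended on single arrays, for the members as for all units. Without array 2921, 0 members were higher and 0 lower (0.0897% and 0.0513% of all units), while 5 and 12 had an unadjusted p under 0.05 in limma. Without array 2907, 1 was higher and 1 lower (2.81% and 0.359% of all units). Without array 2955 there were 15 and 32 (28.2% and 25.9% of all units). The median of the members stayed below that of the other CG-numbered genes in each of these fits, with differences of -0.25 to -0.21.

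Other clone sources bracketed this value. CG-numbered genes with a testis clone, which stay in the comparison, had a median of 0.33, and 38.1% were higher. LP rows of CG-numbered genes, also kept there, had a median of 0.27. The part of this selection in the members' lower median was not tested. Those with a head clone had a median of 0.15, and 28.8% were higher. CG-numbered genes with an embryonic LD clone had a median of -0.18 with 9.65% higher and 22.8% lower, and named genes with an ovary clone a median of -0.20 with 11.4% higher and 19.0% lower. The ovary CG genes thus lay beside the embryonic CG genes and the named ovary genes, and below the testis and head genes. In 43 genes with a GM row and a row of another library, the GM row had the higher Lam ratio in 27, with a median difference of 0.08. It was the higher in all 6 members with both rows, with a median difference of 0.19. The part of the probe's origin in the Lam ratios was not tested.

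**Figure D2:**
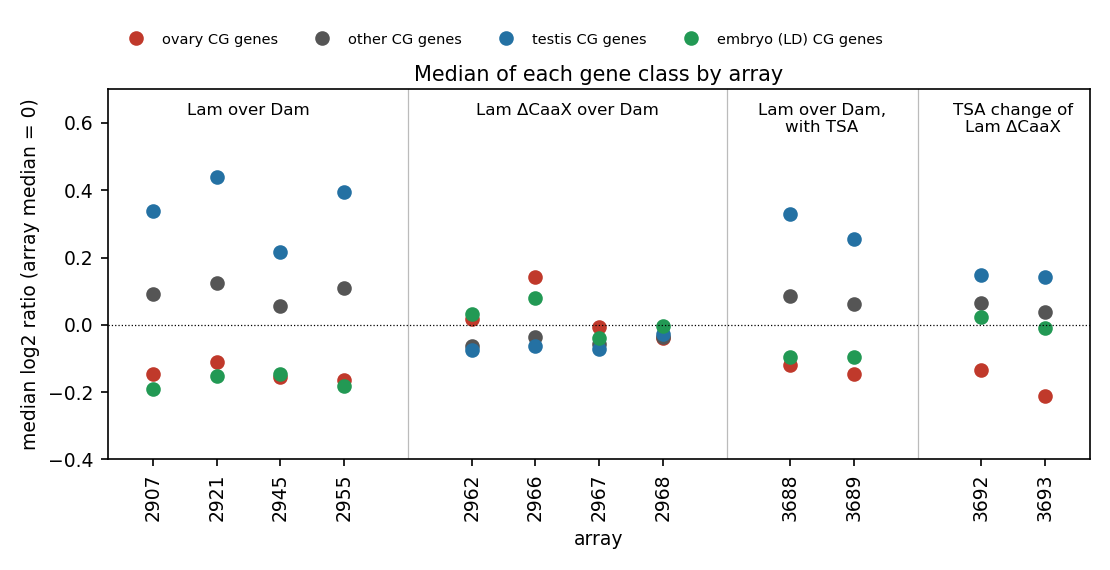
Median log2 ratio of 4 gene classes on each array of 4 comparisons, with each array's median at 0. The ovary CG genes lie below the other CG genes on all 4 Lam arrays, on both arrays of Lam with TSA and on both arrays of the TSA change of Lam delta CaaX.

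CG32054 was the member with the highest Lam ratio. It read 1.42, 1.82, 1.95 and 1.48 on the 4 arrays, a fitted log2 of 1.67 ± 0.16 (SE, n = 4, adjusted p = 0.00245). CG9266 read 1.43, 1.38, 2.08 and 1.10 (1.50 ± 0.19, adjusted p = 0.00372). Both were above 1 on every array. CG15611 read 0.50, 1.00, 0.46 and 1.57 (0.88 ± 0.21, adjusted p = 0.0211), and this value came from its RE row, not from the ovary clone. CG43693 read 0.74, 0.81, 1.17 and 0.75 (0.87 ± 0.14, adjusted p = 0.00716). The other 3 genes called higher were CG13252 (0.67), CG30154 (0.51) and CG32425 (0.43), each above 0 on all 4 arrays.

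CG3817 had the lowest ratio. It read -1.75, -1.80, -1.87 and -1.56 (-1.75 ± 0.14, n = 4, adjusted p = 0.00201), below -1.5 on every array. The annotation lists RRP15 for it, in yeast a factor in the maturation of the large ribosomal subunit. CG12010 read -1.12, -1.29, -0.94 and -1.04 (-1.10 ± 0.13, adjusted p = 0.00353). CG8860, the member with the highest mRNA level, read -0.48 and -0.46 on the arrays with Lam in Cy5 and -1.19 and -2.06 on those with Lam in Cy3 (-1.05 ± 0.18, adjusted p = 0.00751). CG3847 read -0.85, -1.03, -0.66 and -1.40 (-0.99 ± 0.17, adjusted p = 0.00754), also from a row of another library (RH).

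CG10418 had a fitted log2 of -0.88, but 1 array set it: it read -2.39 on array 2945 and -0.30, -0.18 and -0.63 on the others. CG16890 (-0.78), CG7183 (-0.78), CG9917 (-0.76), CG14897 (-0.75) and CG4045 (-0.67) were also called lower and were below 0 on all 4 arrays. CG4045 is listed as METTL1, in human a methyltransferase of transfer RNA. The remaining 8 called lower had log2 values from -0.64 to -0.46. Array 2945 also read apart for genes that were not called: CG10344 read 3.36 there with a fitted log2 of 1.13, and CG11279 read -3.08 with -0.86.

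**Figure D3:**
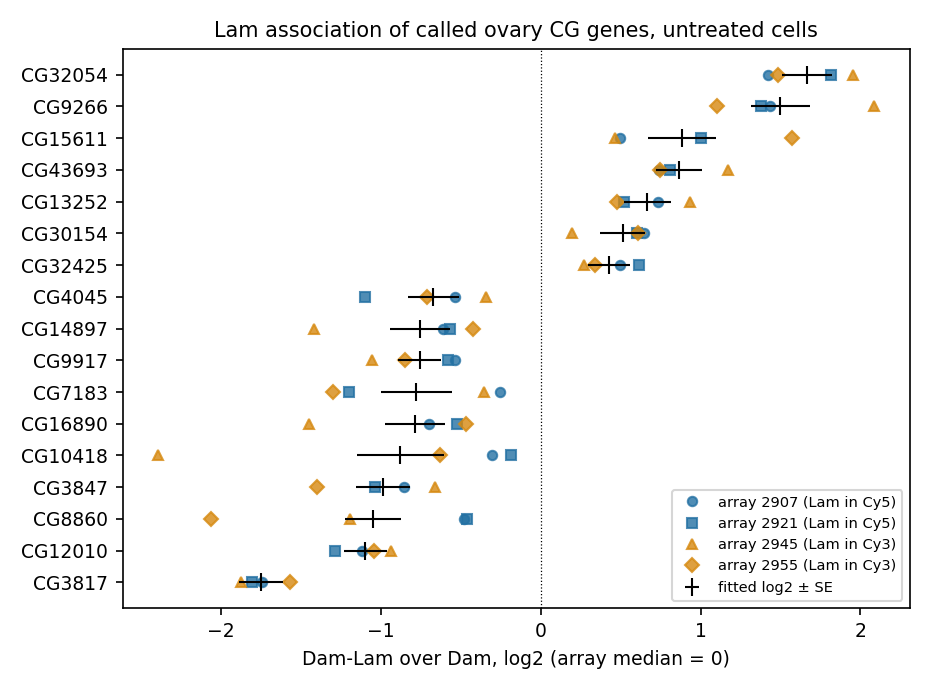
Dam-Lam over Dam (log2, array median at 0) of 17 called ovary CG genes on each of 4 arrays, with the fitted value ± SE. CG32054 and CG9266 lie above 1 on every array and CG3817 below -1.5 on every array, while CG10418 and CG8860 spread widely between arrays.

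The TSA experiment gave a second measure of Lam over Dam without TSA, on separate arrays and derived from the model of its 10 arrays. The members had a median of -0.11 and the other CG-numbered genes one of 0.11. Of 106 members 10 were higher (9.43%; 20.4% of all units) and 15 lower (14.2%; 13.7% of all units). Leaving out array 3690 gave 5 and 15 (17.3% and 11% of all units), and array 3689 gave 6 and 7 (13.3% and 6.14%). Arrays 3686 or 3687 gave 6 and 9 (13.4% and 6.55%, or 14.3% and 7.9%). Array 3688 gave 8 and 9 (14.2% and 7.35%). Of the 6 members with a value in both experiments that were higher in the first, 5 were called higher in the second: CG13252, CG15611, CG30154, CG32054 and CG43693. Of the 16 that were lower in the first, 8 were called lower in the second: CG14897, CG15770, CG3065, CG3817, CG3847, CG7183, CG8490 and CG9917. All 6 and all 16 had the same sign in both, as did 549 of 558 and 253 of 265 other CG-numbered genes. For CG15611 and CG3847 the first value came from a row of another library alone, and the second also used the GM row. For the other CG-numbered genes, 77.2% of the higher and 56.2% of the lower calls of the first experiment were called in the second.

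Single members differed in size between the experiments. CG30154 had 0.51 in the first and 1.46 ± 0.22 in the second (adjusted p = 5.28e-04). CG32054 had 1.67 and 1.23 ± 0.24 (adjusted p = 0.00218). CG17896, which was not called in the first at -0.17, had the lowest value in the second, -1.20 ± 0.29 (adjusted p = 0.00779). This derived value takes in the change of Dam alone with TSA (-0.64), on which the Dam arrays were far apart. The Lam over Dam ratio of CG17896 with TSA was 0.07. CG3817 had -1.75 in the first and -0.68 ± 0.17 in the second (adjusted p = 0.0093). The differences between the experiments were not tested.

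Lam ratios were set against mRNA levels. Over the 112 members the Pearson correlation was -0.22 and Spearman's rho -0.15, and over 2580 other CG-numbered genes they were -0.39 and -0.43. In the TSA experiment without TSA, the members had -0.43 and -0.31 (106 genes). The points share arrays, probes and the chromosomal neighbourhood of genes, and are not independent. The units were cut into 3 equal classes at mRNA levels of -0.86 and 0.74. In the class of highest mRNA the median Lam ratio was -0.16 for 66 members and -0.17 for 522 other CG-numbered genes. In the middle class it was -0.14 for 33 members and -0.12 for 859 others. In the class of lowest mRNA it was -0.10 for 13 members and 0.39 for 1199 others. The medians of members and others were thus near each other in the upper classes, and 66 of 112 members lay in the highest class against 522 of 2580 others. Calls in that class were less alike, with 1 of 66 members (1.52%) and 46 of 522 others (8.81%) higher. Lower calls there were 12 (18.2%) and 89 (17.0%). The classes carry the higher mRNA reading of GM rows, so they do not match members and others in probe source. The part of mRNA level in the members' Lam ratio was not tested. In the TSA experiment the 12 members of the lowest class had a median of 0.17, with 5 called higher (41.7%), and the 984 others one of 0.47, with 453 called higher (46.0%).

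Members with a low mRNA level went both ways. CG32054 and CG30154, at -1.65 and -1.55, were called higher. CG12010 and CG15770, at -1.60 and -1.16, were called lower. The 7 higher members had a median mRNA level of -0.05 and the 18 lower ones of 0.96. The remaining 87 had 1.17.

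**Figure D4:**
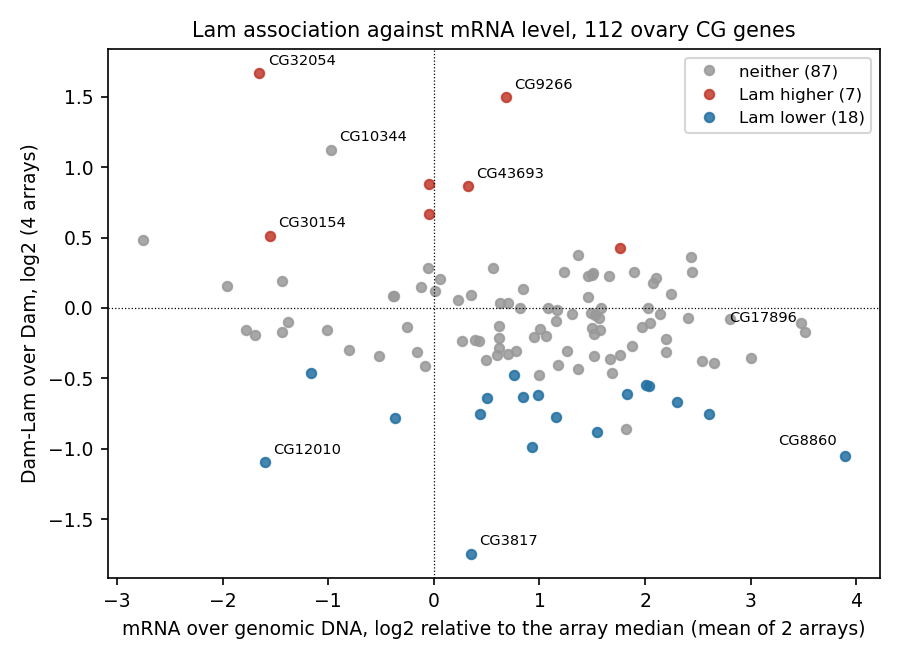
Dam-Lam over Dam (log2, 4 arrays) against mRNA over genomic DNA (log2, mean of 2 arrays) for 112 ovary CG genes, coloured by the call on Lam. Most points lie right of 0 on the mRNA axis, and the 7 genes called higher lie between mRNA levels of -1.65 and 1.76.

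With Lam delta CaaX the members lay close to 0. Their median over Dam was 0.04, and that of 2582 other CG-numbered genes was -0.05. By array the members had 0.02, 0.14, -0.01 and -0.04 on 2962, 2966, 2967 and 2968. Of 111 members tested 16 were higher (14.4%; 16.1% of all units) and 18 lower (16.2%; 16.4% of all units), shares near the background. Leaving out array 2967 gave 5 and 8 (6.21% and 7.87% of all units), and array 2968 gave 5 and 4 (5.93% and 6.86%). Array 2962 gave 25 and 22 (18.9% and 19.1%).

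CG3817 was again lowest, at -2.11, -2.24, -1.51 and -1.27 (-1.78 ± 0.12, n = 4, adjusted p = 5.49e-05). Its ratio was thus below -1 on all 8 arrays of both fusions, each set against Dam. In the TSA experiment without TSA its Lam delta CaaX value was -0.30 and was not called. CG13067 (-0.71), CG30377 (-0.70), CG9926 (-0.68), CG5532 (-0.62) and CG10359 (-0.62) followed. With its GM row alone CG5532 had -0.31 and was not called.

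CG10343 was highest, at 1.15, 1.16, 0.61 and 0.82 (0.94 ± 0.12, adjusted p = 0.0019). In the TSA experiment without TSA it had -0.02 and was not called. CG9286 read 1.25, 0.65, 0.66 and 0.40 (0.74 ± 0.14, adjusted p = 0.0061), and CG10055 read 0.85, 0.74, 0.56 and 0.73 (0.72 ± 0.12, adjusted p = 0.0038). CG10344, CG30055, CG15611 and CG45049 had log2 values from 0.56 to 0.65. CG6325 had 0.51, and its reading of 1.23 on array 2966 stood apart from 0.19, 0.28 and 0.35. Its GM row alone had 0.023 and was not called, and its LD row had 1.00.

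The difference between the fusions was fitted on the 8 arrays together. Of 111 members 9 had a higher Lam than Lam delta CaaX ratio (8.11%; 21.1% of all units) and 20 a lower one (18.0%; 14.1% of all units). The median difference was -0.18 for the members and 0.09 for the other CG-numbered genes. The lower count was 8 without array 2967 or 2968 (8.58% or 8.43% of all units). It was 9 without 2907 or 2921 (9.72% or 8.22%), and 12 without 2962 or 2966 (11.1% or 10.8%). The higher count was 6 without array 2921 (16.8% of all units).

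CG32054 had the largest difference in favour of full-length Lam, 1.96 ± 0.22 (adjusted p = 2.46e-04), with 1.67 for Lam and -0.29 for Lam delta CaaX. CG9266 had 1.35 ± 0.24 (adjusted p = 0.00199). CG9926 (1.05) and CG30377 (0.99) followed, and both were called lower on these Lam delta CaaX arrays. In the opposite direction CG16890 had -1.30 ± 0.25 (adjusted p = 0.00326) and CG10343 -1.28 ± 0.18 (adjusted p = 6.36e-04). CG8860, CG15014 and CG12010 had -1.19, -1.09 and -0.99. For 7 members the Lam and Lam delta CaaX values came from different rows of the gene, so that the difference also spans 2 probes: CG10265, CG10359, CG15611, CG3847, CG4860, CG5757 and CG7668. The value of 1.10 for CG10359 is one of these.

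TSA changed the methylation of single members strongly, also by Dam alone. CG8490 fell in all 3 kinds of cell. Its ratio with over without TSA was -1.48 and -1.29 for Dam (arrays 3690 and 3691), -1.70 and -1.60 for Dam-Lam (3686 and 3687), and -1.94 and -1.99 for Dam-Lam delta CaaX (3692 and 3693). The fitted change with Dam alone was -1.39 ± 0.10 (adjusted p = 9.99e-06). CG10809 rose in all 3, by 1.03 and 0.85 with Dam, 1.09 and 1.10 with Dam-Lam, and 0.87 and 1.17 with Dam-Lam delta CaaX. Its change with Dam alone was 0.94 ± 0.11 (adjusted p = 1.84e-04). Before Dam was subtracted, 31 of 106 members rose with Dam-Lam (29.2%; 31.9% of all units) and 34 fell (32.1%; 33.6% of all units). With Dam-Lam delta CaaX 19 rose (17.9%; 27.8% of all units) and 42 fell (39.6%; 29.2% of all units).

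With Dam alone 11 of 106 members rose (10.4%; 15.6% of all units) and 18 fell (17.0%; 16.0% of all units), with a median of 0.01. Without array 3690 the counts were 3 and 7 (5.02% and 7.7% of all units). CG9626, CG32054, CG6479, CG17896 and CG12112 fell by 0.62 to 0.68, and CG6325 and CG14817 rose by 0.58 and 0.56. On CG17896 the 2 arrays were far apart at -1.12 and -0.16.

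The TSA effect on a fusion is given as its change minus that of Dam. For Lam, 12 members rose (11.3%; 12.4% of all units) and 17 fell (16.0%; 17.6% of all units), shares near the background, and the median was -0.03 against -0.06 for the other CG-numbered genes. Leaving out array 3686 gave 4 and 2 (3.09% and 7.01% of all units), and array 3687 gave 9 and 6 (5.08% and 9.07%). Array 3690 gave 10 and 9 (7.48% and 11.6%), and array 3691 gave 18 and 16 (13.7% and 18.8%). CG30154 fell by 1.10 ± 0.18 (adjusted p = 0.00153). It read -1.34 and -1.64 on the Dam-Lam arrays and -0.03 and -0.76 on the Dam arrays. CG30055 (-0.75), CG4957 (-0.67), CG13252 (-0.66), CG2611 (-0.64), CG31278 (-0.63) and CG32054 (-0.63) fell too. CG17896 rose most, by 1.27 ± 0.24 (adjusted p = 0.00267), with readings of 0.69 and 0.57 on the Dam-Lam arrays. The rest of its value is the subtracted Dam change of -0.64, on which the Dam arrays were far apart. CG6153 (0.79), CG6724 (0.67), CG3065 (0.66) and CG3040 (0.66) followed.

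The members called for Lam in the first experiment were followed on these other arrays. Of the 6 called higher there and measured here, 4 fell with TSA: CG30154, CG13252, CG32054 and CG15611. The other 2, CG43693 and CG32425, were below 0 as well, and the 6 ranged from -1.10 to -0.44. Of the 16 called lower, 4 rose, and the 16 ranged from -0.27 to 0.66. Among other CG-numbered genes 295 of 558 called higher fell and 99 of 265 called lower rose.

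For Lam delta CaaX, 32 of 106 members fell (30.2%; 20.4% of all units) and 14 rose (13.2%; 16.2% of all units). The median was -0.17, against 0.06 for 2234 other CG-numbered genes, of which 17.2% fell and 20.0% rose. Named genes with an ovary clone had a median of -0.10, and 24.3% fell and 6.19% rose. CG-numbered genes with an LD clone had -0.07, with 20.6% and 13.7%, and those with a testis clone 0.27, with 6.60% and 34.3%. On the arrays themselves, before Dam was subtracted, the members' medians were -0.13 and -0.21 and those of the other CG-numbered genes 0.06 and 0.04. Without array 3693 16 fell and 6 rose (10.1% and 5.63% of all units). Without array 3692 18 fell and 8 rose (9.8% and 7.05%). Without array 3690 25 fell and 9 rose (15.2% and 12%). Over the other CG-numbered genes this change had a Pearson correlation with mRNA level of -0.36 and a Spearman's rho of -0.37. Over the 106 members these were only -0.13 and -0.14. In the class of highest mRNA 22 of 64 members (34.4%) and 161 of 453 other CG-numbered genes (35.5%) fell. In the middle class 9 of 30 members (30%) and 131 of 738 others (17.8%) fell. In the lowest class 1 of 12 members (8.33%) and 74 of 984 others (7.52%) fell. These classes too carry the higher mRNA reading of GM rows. The part of mRNA level in the members' median was not tested.

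CG2611 fell by 1.36 ± 0.13 (adjusted p = 1.33e-04), with -1.52 and -1.60 on the Dam-Lam delta CaaX arrays. CG30055, CG31278, CG2100, CG4957 and CG10344 followed with values from -1.21 to -0.91. CG17896 (1.00 ± 0.24, adjusted p = 0.00681), CG32054 (0.80 ± 0.19, adjusted p = 0.00753), CG12010 (0.76) and CG3040 (0.75) rose most. CG32054 thus fell by 0.63 with Lam and rose by 0.80 with Lam delta CaaX, and both values subtract the same Dam change of -0.66. Its readings were -1.21 and -1.38 with Dam-Lam and 0.14 and 0.13 with Dam-Lam delta CaaX. With CG2611 the values were -0.64 for Lam and -1.36 for Lam delta CaaX, and with CG17896 1.27 and 1.00, again over shared Dam arrays. For CG17896 those Dam arrays were far apart, as given above.

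**Figure D5:**
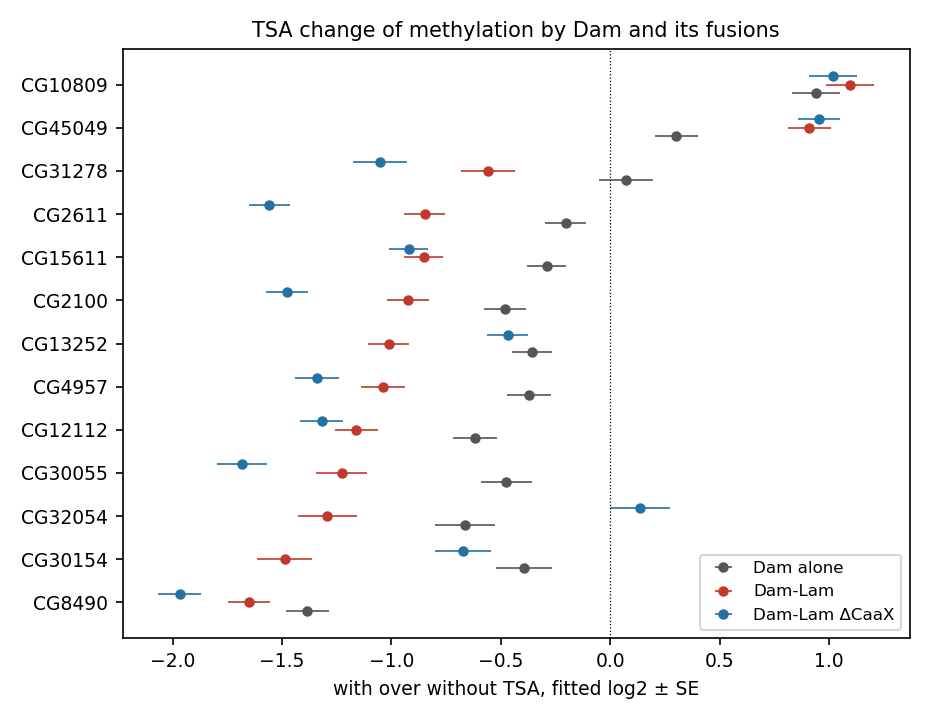
Change with over without TSA (fitted log2 ± SE) of methylation by Dam, Dam-Lam and Dam-Lam delta CaaX for the 13 ovary CG genes named for Dam or Lam that reached a size of 0.9 in at least 1 of the 3. CG8490 and CG10809 moved with all 3 proteins, while CG32054 fell with Dam and Dam-Lam and was not called with Dam-Lam delta CaaX.

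With TSA present the members again had a lower median of Lam over Dam than other CG-numbered genes. Their medians on arrays 3688 and 3689 were -0.12 and -0.15, against 0.08 and 0.06. Of 106 members 6 were higher (5.66%; 19.5% of all units) and 26 lower (24.5%; 14.6% of all units). Named genes with an ovary clone had 6.19% higher and 18.6% lower, and CG-numbered genes with an LD clone 9.63% and 19.5%. Below 0 on both arrays were 60 (56.6%; 39.1% of all units). Without array 3688 0 were higher and 3 lower (3.7% and 1.18% of all units), with 2 higher at an unadjusted p under 0.05 in limma. Leaving out array 3689 gave 1 and 4 (5.09% and 2.27%), and array 3690 or 3691 gave 10 and 32 (22.8% and 18.7%). CG8490 was lowest at -1.04 and -0.90 (-0.97 ± 0.10, adjusted p = 8.41e-05), and CG4957 (-0.62), CG7950 (-0.55), CG9917 (-0.53) and CG2100 (-0.51) followed. CG32054 was highest at 0.74 and 0.46 (0.60 ± 0.14, adjusted p = 0.00596), then CG10359 (0.54) and CG30154 (0.37).

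Lam delta CaaX was set against Dam in the same model. Without TSA 10 of 106 members were higher (9.43%; 7.02% of all units) and 2 lower (1.89%; 5.18% of all units). The 2 were CG9926 (-0.98 ± 0.21, adjusted p = 0.0155) and CG32054 (-0.85 ± 0.24, adjusted p = 0.0366), and CG10344 was highest at 1.29 ± 0.24 (adjusted p = 0.00941). Of the genes named above for untreated Lam delta CaaX, CG9926, CG9286, CG10055, CG10344, CG30055 and CG15611 were called in the same direction here. CG3817 (-0.30), CG13067 (-0.35), CG5532 (-0.68), CG10359 (-0.07) and CG6325 (0.30) were not called. CG10343 (-0.02), CG30377 (0.27) and CG45049 (-0.39) were not called and had the opposite sign. These differences were not tested. With TSA 3 members were higher (2.83%; 5.29% of all units) and 12 lower (11.3%; 7.19% of all units), with CG8490 lowest at -1.06 ± 0.10 (adjusted p = 1.2e-04). Single arrays were not left out for this comparison.

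Ecdysone, the steroid hormone of insect moulting, changed the mRNA of few members, and pairs of its 5 arrays correlated between -0.13 and 0.76 over all units. CG11899 rose to 2.52, 1.28, 1.90, 2.15 and 2.11 on arrays 3426, 3427, 3450, 3451 and 3452 (2.04 ± 0.16, n = 5, adjusted p = 2.1e-04). CG9932 rose by 0.71 with 1 array at -0.06. In all 2 members rose (1.89%; 2.17% of all units) and 6 fell (5.66%; 1.61% of all units). CG17896 fell most, with -1.19, -0.51, -1.88, -1.39 and -0.97 (-1.17 ± 0.19, adjusted p = 0.00961). CG42813, listed with the synonym Nudix, read -0.79, -0.78, -1.15, -0.70 and -0.62 (-0.79 ± 0.13, adjusted p = 0.0115). CG32280 (-0.74), CG5114 (-0.64), CG10055 (-0.60) and CG10340 (-0.60) were the other 4. CG32280 ranged from -1.74 to 0.18, with array 3452 above 0. All 6 that fell had an mRNA level above the array median on both mRNA arrays. So did 73 of the 98 members not called and 46.8% of all units, and nothing is read from this count. The count that fell was 15 without array 3427 (6.43% of all units) and 1 without array 3450 or 3452 (0.536% or 0.832%). It was 0 without array 3426 or 3451 (0.409% of all units in each), with 11 and 14 at an unadjusted p under 0.05 in limma. The count that rose was 1 without array 3450, 3451 or 3452 (1.06%, 0.776% or 1.38% of all units). Below 0 on all 5 arrays were 17 of 106 members (16.0%; 7.49% of all units), and 3 were above 0 on all (2.83%; 8.29% of all units).

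The genes beside the members in the Release 6 gene order were compared on the same Lam arrays. Of 108 pairs of a member and a measured neighbour, 13.9% of neighbours were called higher and 14.8% lower. The 2376 pairs of other CG-numbered genes gave 21.5% and 13.3%, and pairs of all genes with a symbol 17.2% and 15.9%. Both genes of a pair share arrays, and a gene can enter 2 pairs. The neighbour of CG32054, Srg2, had a ratio of 1.86 beside its own 1.67, and the neighbours of CG43693, CG32081 and CG7888, had 1.20 and 0.61. The neighbour of CG12010, Ythdc1, had -1.39. The neighbour of CG3817, Nup93-2, had -0.49 and was not called. Of the 15 neighbours of members called lower, 5 were called lower (33.3%), where other CG-numbered genes gave 35.1% and all genes 34.9%. Of the 6 neighbours of members called higher, 4 were called higher (66.7%), where other CG-numbered genes gave 49.9% and all genes 49.75%. Another 1 of the 6 was called lower (16.7%), where other CG-numbered genes gave 1.54% and all genes 2.11%. These 6 pairs come from 4 members, and nothing is read from their shares. CG1622 and CG1764 were the only members next to each other, with ratios of -0.40 and 0.21, and neither was called.

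The annotation's synonyms place 6 members in RNA metabolism, a group picked after the values were known. They are CG3817 (RRP15), CG8545 (NOP2), CG7006 (dNIP7, in yeast a factor of ribosome assembly), CG12288 (RBM34, an RNA-binding protein), CG10333 (DmPrp28, in yeast a helicase of the spliceosome) and CG4045 (METTL1). Their mRNA levels were 0.35, 2.54, 2.20, -0.16, 1.16 and 2.30 in that order. Their Lam ratios were -1.75, -0.37, -0.31, -0.31, -0.09 and -0.67. CG3817 and CG4045 were called lower (2 of 6; 14.9% of all units), and nothing is read from this count. Members listed with synonyms of other enzymes were CG4860 (ACADS, an acyl-CoA dehydrogenase), CG5214 (alpha-KGDHC, of the citric acid cycle), CG11357 (dbeta3GnT), CG42813 (Nudix) and CG17598 (PP2C). Their Lam ratios were 0.26, -0.05, -0.11, 0.18 and 0.21 in that order, and none was called.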

How the data were processed

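The deposited values are log2 ratios, 1 per probe row and array, as the authors made them; per the submitters' processing notes limma was used, while the sources used here give neither its version nor the background correction, normalization, log base or direction of the ratios. Log base 2 was taken. Of 9006 rows, 7843 named 1 gene, 246 several and 917 none. Each array was centred on its median, and rows of a gene were averaged into 8421 units. limma 3.58.1 (R 4.3.3) fitted each comparison by lmFit and eBayes, a dye effect per gene included. A unit entered a fit if 75% or more of its arrays had a value. The 10 TSA arrays formed 1 model of 6 DNA samples. Tests were two-sided. A call needed p under 0.05 after Benjamini-Hochberg adjustment across the units fitted. Fits were tested on simulated data.

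Up to 10 called members in each direction per comparison were named, if all arrays that measure the comparison directly had 1 sign; for mRNA level, the 10 highest and 10 lowest. Members, lists and rules were chosen with earlier results of these data known. CG10344 and CG11279 under Lam, CG9932 and CG32280 under ecdysone, the members listed with synonyms, and the neighbours were named after their values were seen. No spot intensities were used here, so the number of arrays limits the precision. The RefSeq table served for names and gene order only. The 10 arrays of the ecdysone DamID experiment were used for alternatives only.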

Additional observations from a re-analysis of the deposited data

Results flagged for a closer look

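Of 52 sets of 4 or 5 array values tested for 1 value far from the rest, 5 had one, and chance alone gives about 1 in 20. CG43693 read 1.17 for Lam on array 2945, above 0.74, 0.75 and 0.81 on the others. CG30154 read 0.196 on the same array, below 0.60, 0.61 and 0.64. CG6325 read 1.23 for Lam delta CaaX on array 2966, above 0.19, 0.28 and 0.35. These are means of 2 rows that differ, with array means of 0.023 on the GM row and 1.00 on the LD row. In the ecdysone mRNA comparison the members' median was -0.284 on array 3450 and between -0.09 and -0.03 on the other 4 arrays. The members' median minus that of the other CG-numbered genes was -0.285 on the same array and between -0.09 and -0.02 on the others.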

How the results depend on the processing

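For Lam over Dam, adding the 3 untreated arrays from the ecdysone study without turning any sign left 0 members higher and 0 lower in limma (2 and 2 at an unadjusted p under 0.05), a median difference from other CG-numbered genes of -0.073, and CG30154 at -0.042, the opposite sign. With arrays 3441 and 3443 turned, an alternative chosen after seeing the data, 6 were higher and 26 lower and the difference was -0.23. The mRNA level from rows of other libraries alone was also added after seeing the data. At an adjusted p under 0.01 the higher and lower counts were 3 and 5 for Lam, 5 and 6 for Lam delta CaaX, 8 and 19 for the TSA change of Lam delta CaaX, 3 and 7 for that of Dam, 2 and 8 for Lam with TSA, 5 and 9 for Lam without TSA, and 1 and 1 for ecdysone mRNA. The lower counts were 5 for Lam minus Lam delta CaaX and 6 for the TSA change of Lam. With an absolute log2 of at least 0.5 the counts were 9 and 11 for Lam delta CaaX, 3 and 6 for Dam, 2 and 6 for Lam with TSA, and 11 lower for the TSA change of Lam. With no dye term 9 were lower for Lam delta CaaX, 11 lower for the TSA change of Lam, 6 higher for Dam, 3 higher and 16 lower for Lam with TSA, 6 higher for Lam without TSA, and 1 higher for ecdysone mRNA. Members with GM rows only had median differences of 0.040 for Dam and -0.20 for Lam with TSA, and GM rows alone gave -0.19 for the latter. The median mRNA level of the members was 0.82 as deposited and 1.20 from GM rows alone. Equal scaling of the arrays, values not centred, and a value required on every array moved no count of called members by over 1.5 times. The cause of these shifts was not tested. Shares over all units are not given for these settings, so the counts are not read as a result about the members.

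Leaving out 1 array at a time, the higher and lower counts ranged from 0 to 15 and 0 to 32 for Lam, 5 to 25 and 4 to 24 for Lam delta CaaX, 6 to 10 and 8 to 20 for their difference, 4 to 18 and 2 to 19 for the TSA change of Lam, 6 to 14 and 16 to 32 for that of Lam delta CaaX, 3 to 13 and 7 to 18 for that of Dam, 0 to 10 and 3 to 32 for Lam with TSA, 5 to 11 and 7 to 18 for Lam without TSA, and 1 to 2 and 0 to 15 for ecdysone mRNA. The median difference ranged from -0.25 to -0.21 for Lam, -0.22 to -0.18 for Lam with TSA, -0.29 to -0.19 for Lam without TSA, 0.036 to 0.091 for the TSA change of Lam, and -0.011 (without array 3690) to 0.015 for that of Dam. Over all units the share of higher Lam calls ranged from 0.0897% to 28.2%. No paired analysis was possible because array numbers are not shared between groups. Few arrays, and no spot signals, limit what differences can be seen.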
